A study of Danio rerio with 12 samples.

Results

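Male and female zebrafish (Danio rerio) were compared in 2 tissues at once, and the transcripts described here are those whose abundance differed between the sexes in the same direction in the gonad and in the rest of the body. The arrays carried 15502 probe sets besides the control probes, and 15071 of them gave a signal above 32 units on at least 1 of the 12 arrays. A probe set entered the male set when it was called higher in males, when testis exceeded ovary and male body exceeded female body, and when the lowest of the 6 male arrays lay above the highest of the 6 female arrays; the female set is the mirror image. The male set held 1173 probe sets (7.78% of those tested) and the female set held 924 (6.13%). These definitions use the measured values themselves, so the differences of the members are given below as a description. Calls of members within and between tissues rest on the same arrays that chose them and are no independent test.

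The 12 arrays formed 4 groups of 3, with 1 tissue of 1 fish per array: testis, ovary, and the bodies of males and of females after the gonads had been removed (male body and female body). All fish were wild-type animals of the AB strain, full siblings aged 4 to 12 months, that had spawned and were then kept apart from the other sex for 5 days before the whole reproductive tract was taken out. No fish carried a transgene, a mutation or a treatment. The body samples hold every other organ, so they are mixtures of muscle, liver, brain, skin, blood and gut, and a lower signal there can mean fewer cells of a type or less RNA per cell, which bulk samples cannot tell apart.

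A ripe zebrafish ovary is filled with oocytes, which store messenger RNA and protein for the early embryo and make the proteins of their own egg coat. The yolk comes from elsewhere: the liver of females makes vitellogenins under the influence of estrogen, and the blood brings them to the oocyte. The testis is built of cysts of dividing and differentiating germ cells wrapped by Sertoli cells, with Leydig cells between them that make androgens, and its most abundant late products serve the flagellum of the sperm. Genes expressed in the gonads therefore differ greatly between the sexes, while differences between the bodies of the sexes are known best from the liver.

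The female body arrays carried transcripts typical of oocytes, and this touches every result that uses them. The summed signal of 5 oocyte markers (buc, zar1, zp3a.2, btg4 and bmp15) was 45060 to 50443 in ovary, 17988 to 37929 in female body, 125 to 343 in male body and 517 to 709 in testis. The 2 measured markers of ovarian soma (hsd3b2 and cyp19a1a) gave 246 to 654 in female body against 62.1 to 96.6 in male body. Most of the female body sum was hsd3b2 (646, 410 and 184 on the 3 arrays). The gene cyp19a1a differed by -0.31 log2 units between the bodies and was not called between the sexes (limma adjusted p = 0.051). Spermatogenic markers were close to absent from male body (158 to 214 against 25536 to 28772 in testis), and sycp3, a protein of the meiotic chromosome axis, was at or under 32 on all 3 male body arrays. The testis arrays in turn carried signals of neighbouring organs: 4 liver markers summed to 2504 to 6192 and 3 pancreas markers to 3756 to 10979 there, against at most 154 and 384 in ovary. How much ovarian RNA the female body arrays held, and its part in any difference between the bodies, was not tested.

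Across all 15071 probe sets, limma called 6695 higher in males (44.4%) and 3500 higher in females (23.2%) in the sex contrast, which is the mean of testis and male body minus the mean of ovary and female body on the log2 scale. The values of every array had been scaled to the same trimmed mean by the authors, and the direction of the balance rested on that scaling. Males had 65.7% of the calls as deposited, 56.0% after quantile normalisation, 43.7% after centring each array on its median, and 36.4% when the arrays were scaled to their 9 hybridisation control probe sets. Those controls were themselves 0.82 log2 units higher on male arrays. The median difference over all probe sets was 0.31 log2 units as deposited, 0.10 after quantile normalisation, -0.10 after median centring and -0.21 with the control scaling. Single groups of genes moved by more than these medians: that of the cytosolic ribosomal proteins went from 0.72 to -0.09 with the control scaling. Differences up to about the 0.82 units of the controls therefore have no settled direction.

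Every probe set whose arrays did not overlap between the sexes had also been called by limma. The 2 sets had different shapes. In the female set the median difference was -2.40 log2 units (-2.98 in gonad and -1.73 in body), 238 members differed by at least 4 units, and the gap between the nearest male and female arrays was at least 1 unit in 340 members. In the male set the median was 1.65 units (2.23 in gonad and 0.99 in body), 10 members reached 4 units and 35 had a gap of at least 1 unit.

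**Figure D1:**
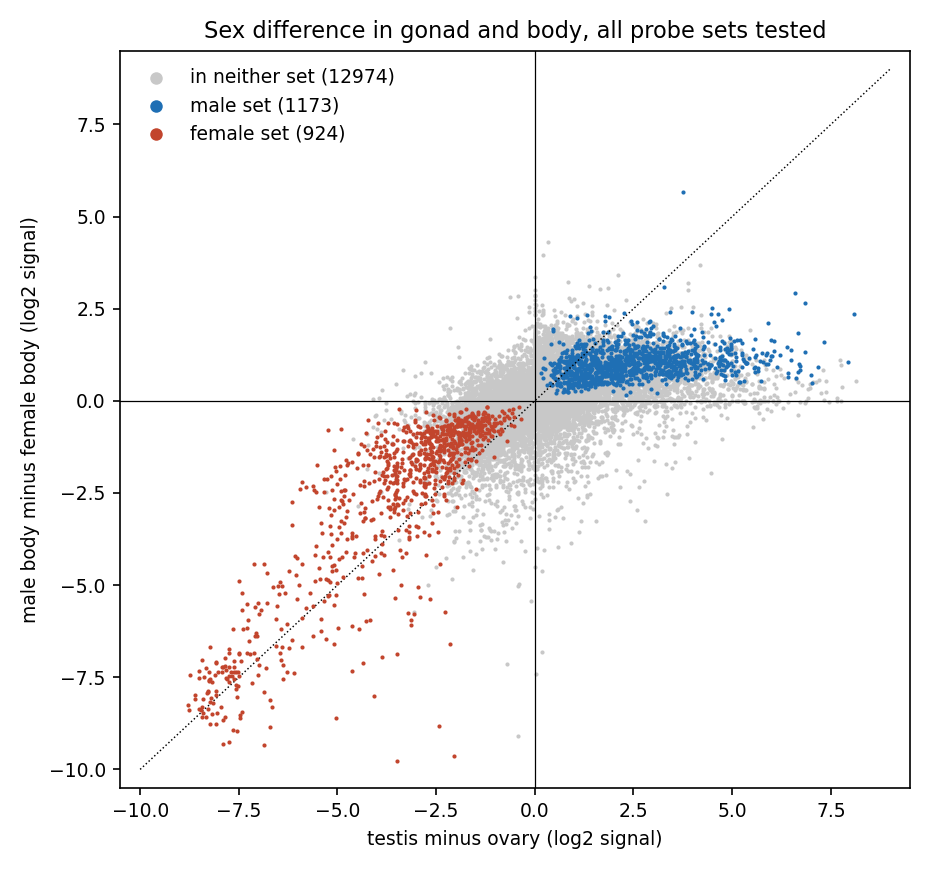
Each point is 1 of 15071 probe sets; the x axis is the difference of testis minus ovary and the y axis that of male body minus female body, both in log2 signal units (3 arrays per group). Members of the male set (blue, 1173) lie mostly below the dotted line of equal differences, at body differences around 1 unit. Members of the female set (red, 924) stretch towards the lower left, 792 of them with the larger difference in gonad. One near the line is si:dkey-229d11.5, at -8.50 in gonad and -8.37 in body.

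The levels behind these differences were far apart. The median female member had a mean signal of 1882 in ovary and 805 in female body against 155 in testis and 118 in male body. The median male member had 431 in testis and 299 in male body, against 47.1 in ovary and 146 in female body. On all 3 ovary arrays 378 of the 1173 male members were at or under 32, where values have no order and a difference is a lower bound, and 82 of the 924 female members were so on all 3 male body arrays.

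Members shared the direction in both tissues, and the size of the difference was called unequal in part of each set. In the male set 1051 members differed more in the gonad than in the body, and limma's test of the difference between the 2 tissues called 694 members (59.2%, against 35.7% of all probe sets tested), of which 691 had the larger fitted value in gonad and 3 in body. In the female set 792 differed more in gonad, and the test called 454 (49.1%), 419 of them larger in gonad and 35 larger in body. Taken alone, testis against ovary was called for 1143 male and 920 female members (37.8% of all probe sets tested were higher in testis and 21.9% lower). Male body against female body was called for 979 and 838 (26.6% of all were higher and 16.7% lower). Both tissues were called by themselves for 953 male and 836 female members, against 16.6% and 11.5% of all probe sets; the choice of members used these contrasts.

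The 3 female body arrays were not alike, and both sets followed them. Female body 1 was the lowest of the 3 for 942 of the 1173 male members and the highest for 826 of the 924 female members. Relative to the ovary mean, female members stood at a median of 61.4% on female body 1, 40.6% on female body 2 and 34.0% on female body 3. Relative to the male body mean, male members stood at 38.8%, 52.2% and 58.4% on the same arrays. The same order was seen in probe sets chosen by signal level, some of which were also members. Among 1196 probe sets at or under 32 on all ovary arrays and with a male body mean of at least 200, female body stood at 30.3%, 50.2% and 60.3% of male body. Among 126 at or under 32 on all male body arrays and with an ovary mean of at least 200, it stood at 59.4%, 32.7% and 22.6% of ovary. Male members made up 122 of the 1196 and female members 79 of the 126, so these are no independent comparison. Without female body 3 the male set grew to 1903 probe sets and the female set to 1254. Keeping female body 3 as the sole female body array left 1 array in that group, so no counts of that fit are given. Arrays that lie apart stay apart when some are left out. A member could therefore leave a set only by losing its limma call, and the larger sets without female body 3 are no separate support for the members.

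**Figure D2:**
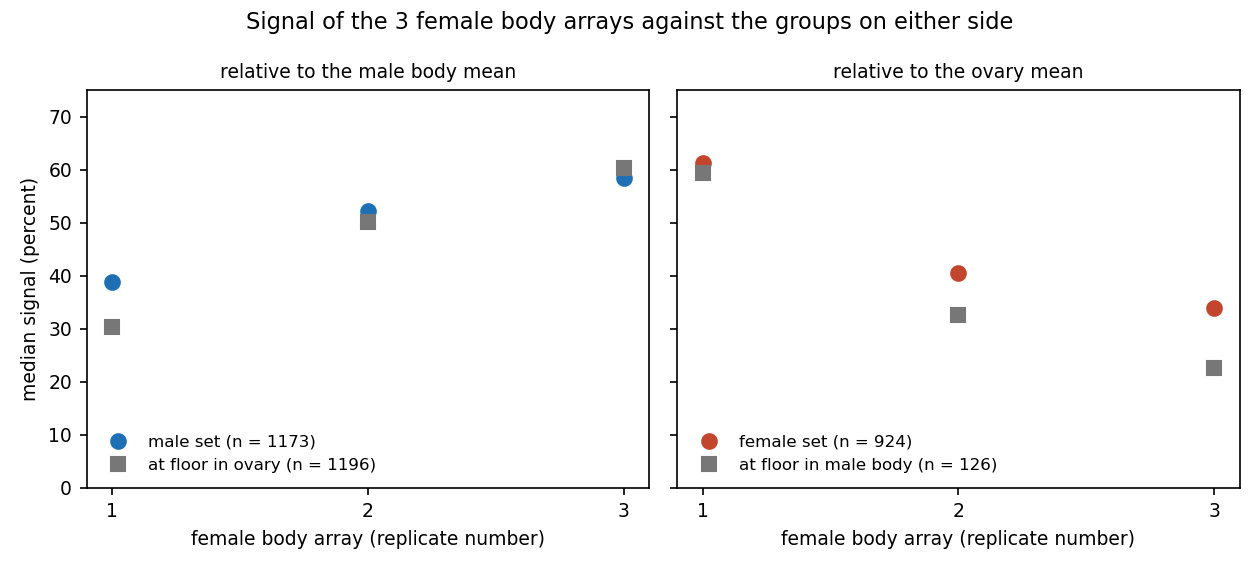
Median signal of each female body array, as a percentage of the male body mean (left, blue: male set) and of the ovary mean (right, red: female set). Grey squares show probe sets chosen only for being at or under 32 in the other group, with a mean of at least 200 in the reference group. Female body 1 sits lowest against male body and highest against ovary in members and in the grey probe sets, of which 122 (left) and 79 (right) are themselves members.

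Transcripts of the egg coat and of the oocyte led the female set. All 16 measured egg coat genes, which encode zona pellucida proteins, were called higher in females and 15 of them were in the female set (of 8705 genes with 1 probe set each, 28.3% were called higher in females and 6.97% were in the female set). Their median difference was -6.77 log2 units against 0.22 for all genes. Of 32 genes for oocyte and maternal factors, 28 were called higher in females and 26 were in the set, with a median of -5.02. The other direction was called for 3 of the 32, and 1 of these, spon1b, was in the male set (2.15 log2 units). Neither median changed sign under any scaling.

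The zona pellucida gene zp2.6 read 19456, 20451 and 18941 in the 3 ovaries and 19647, 15873 and 16688 in the 3 female bodies. Its male signals were 50.4, 192 and 62 in testis and 60.6, 18.6 and 46.8 in male body. Every female array lay far above every male array, a difference of -8.23 ± 0.28 log2 units (male minus female, ± SE from limma, 3 arrays per group). The coat gene zp3a.1 differed by -8.2 ± 0.24 units, zpax1 by -7.48 ± 0.2, zpax4 by -6.74 ± 0.23 and zp3b by -5.82 ± 0.25. The claudin gene cldnd, which encodes a tight junction protein that oocytes store, showed the same two-tissue pattern, with 17032, 19384 and 15862 in ovary, 16089.8, 12726 and 10629.5 in female body, and at most 159 on a male array (-8.28 ± 0.26 log2 units).

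Factors that act in the egg or the early embryo behaved alike. The linker histone gene h1m, whose product packs the chromatin of the egg, read 13342, 14747 and 12616 in ovary and 11089, 9299 and 5996 in female body, while the 6 male arrays ranged from 6.9 to 81.4. The gene sall4, a zinc finger transcription factor of stem cells and germ cells, was at 13871, 11266 and 12768 in ovary and spread widely in female body, at 12678, 6542 and 2407; of the male arrays 5 were under 32. In both genes female body 1 was nearest to the ovary level and female body 3 farthest from it.

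The same order held for btg4, which is needed in oocytes for clearing maternal messages: 13370.2, 14828 and 11164 in ovary, 10075, 6530.2 and 4589 in female body and at most 134 on a male array. Differences were -6.73 ± 0.27 for zar1 (zygote arrest), -6.72 ± 0.21 for pou5f3 and -5.73 ± 0.17 for nanog (embryonic transcription factors), -5.56 ± 0.22 for buc, the organiser of the Balbiani body, -5.59 ± 0.24 for the meiotic kinase mos and -4.72 ± 0.27 for the oocyte growth factor bmp15. The germ cell gene nanos3 was the sole member among 16 germline and piRNA genes, at 5942, 7438 and 4622 in ovary, 3705, 2768 and 1618 in female body and 22.3 to 76.1 on the male arrays. Of the other 15 germline genes 8 were called higher in females and 2 in males (28.3% and 41.3% of all genes), all with overlap between the sexes.

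**Figure D3:**
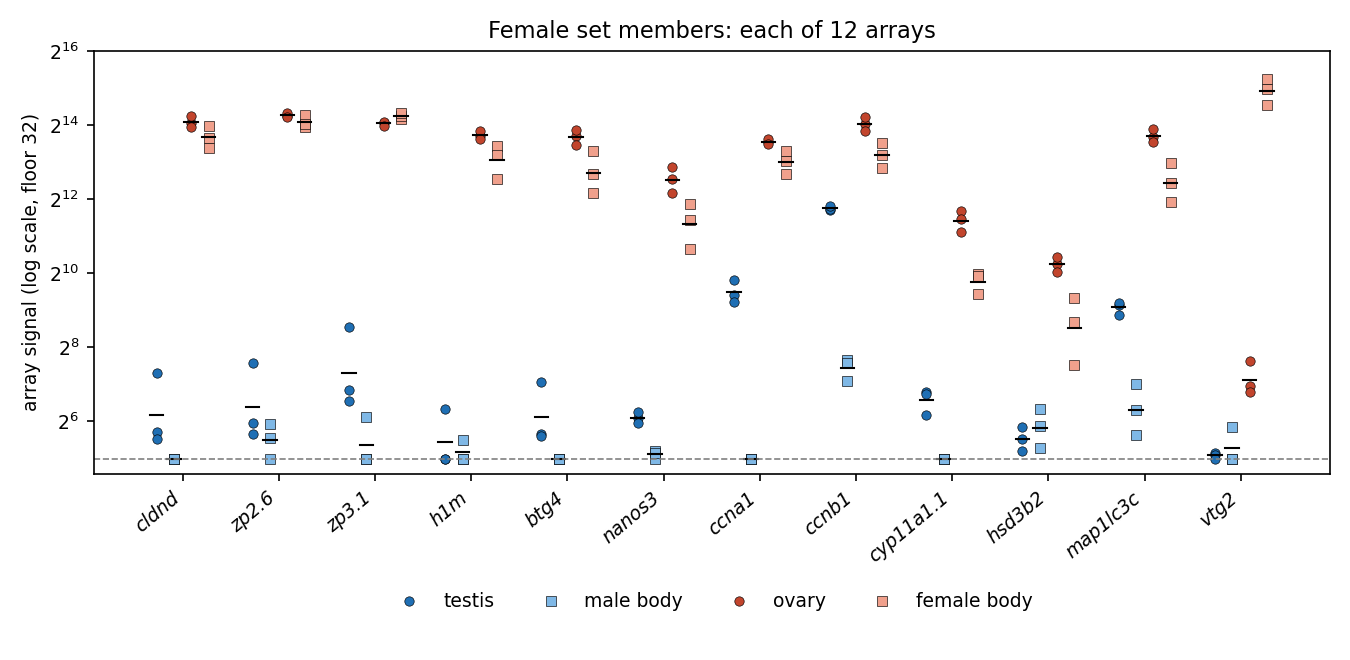
Signal of 12 female set genes on each of the 12 arrays (y axis, logarithmic, values under 32 drawn at 32, dashed line); points are single arrays and short black lines are the group means on the log scale. Ovary (dark red circles) and female body (light red squares) lie above every male array; vtg2 is the gene whose female body signals exceed its ovary signals by the widest margin.

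Most of the 10 named genes with the largest female excess had only a provisional name. Among them were zgc:173856 at -8.49 ± 0.32, zgc:173770 at -8.45 ± 0.27, si:dkey-229d11.5 at -8.43 ± 0.14 and zgc:173837 at -8.34 ± 0.15 log2 units. For si:dkey-229d11.5 the ovary read 13997, 13299 and 13124 and the female body 12986, 10210.3 and 8864, while testis 2 was the 1 male array above 32, at 50.4. Testis 2 was the highest testis array for 154 of the 238 female members that differed by at least 4 units. Its median signal there was 1.44% of the ovary mean, against 0.847% on testis 1 and 0.815% on testis 3. Over the whole female set testis 2 was the highest for 369 of 924 members. Male body 1 was the highest male body array for 116 of the same 238. The part of any female RNA on testis 2 was not tested.

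Cell cycle genes were mostly female-enriched, in contrast to the flagellar and metabolic groups below. Of 100 genes of DNA replication and the cell cycle, 62 were called higher in females (28.3% of all genes) and 9 in males (41.3%). The female set held 10 of them (6.97% of all genes) and the male set 2 (6.8%), so the share in the female set was near that of all genes. Their median was -0.73 log2 units under the deposited scaling, -0.01 in the gonads alone and -1.56 in the bodies; the median over both tissues stayed below 0 under every scaling. Testis carried cyclin transcripts as well. For ccnb1, a mitotic cyclin, testis read 3349.6, 3408 and 3597 and ovary 16532, 19035 and 14746, whereas male body read 202, 189.7 and 136 and female body 11728, 9388 and 7307. The ranges did not overlap in either tissue, and the difference was larger in the body (-5.74 ± 0.2) than in the gonad (-2.27 ± 0.2).

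The meiotic cyclin gene ccna1 read 905, 684 and 593 in testis and 11996, 12593 and 11439 in ovary. All 3 male body arrays were under 32 for ccna1, and female body read 10053, 8347 and 6529. For ccnb2 the difference was -3.86 ± 0.21 in gonad and -6.94 ± 0.21 in body, for the oocyte kinase gene wee2 -2.66 ± 0.26 and -5.38 ± 0.26, and in all 4 genes the sexes were farther apart in the body than in the gonads. The kinesin gene kif20a, a motor of cell division, had -3.43 ± 0.31 in gonad and -2.63 ± 0.31 in body (difference between tissues adjusted p = 0.19).

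Genes of steroid synthesis were in both sets and in neither. The gene star, whose protein carries cholesterol into the mitochondrion at the start of steroid synthesis, was in the male set: testis read 9179.8, 9463 and 8716, male body 365, 893 and 858, ovary 124, 52 and 76.4 and female body 73.6, 265 and 56.7. The lowest male body array lay above the highest female array, by 0.46 log2 units. The gene cyp11a1.1, an enzyme that cleaves the cholesterol side chain, was in the female set instead, at 2205, 3296 and 2824 in ovary and 1010, 964 and 691 in female body against 110.4, 107 and 72.7 in testis and under 32 in male body. Likewise hsd3b2, which converts pregnenolone to progesterone, read 1211, 1392 and 1053 in ovary and 646, 410.1 and 184 in female body, with 80.9 on the highest male array.

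A later enzyme on the way to fish androgens was male-enriched in both tissues. For cyp11c1, the 11-beta-hydroxylase of 11-ketotestosterone synthesis, testis read 1703, 1689.8 and 1405 and ovary 39.3, 28.2 and 45.4. Male body was low, at 103, 68.8 and 126, but above the 51.5, 63.5 and 19.5 of female body. The 4 measured testis soma markers, of which star and cyp11c1 are 2, summed to 586 to 1109 in the 3 male bodies, against 166 to 399 in those of females; star and cyp11c1 make up most of that sum in male body, and the other markers, gsdf and amh, differed little between the bodies. The part of testicular tissue left in the body was not tested. Of all 26 genes of gonadal soma and steroid synthesis, 16 were called higher in males and 3 in females (41.3% and 28.3% of all genes). The male set held 6 and the female set 2 (6.8% and 6.97% of all genes). The enzyme gene cyp17a1 was in neither, with -0.10 log2 units in gonad and -5.43 in body, and so was hsd11b2, with 5.51 in gonad and 1.00 in body.

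Other members of that list were signalling genes. The gene aldh1a2, which makes retinoic acid, read 4035, 6013 and 7199 in testis, 806, 925 and 724 in male body, 74.7, 51.7 and 61.2 in ovary and 192, 545 and 514 in female body. Activin subunits and their binding protein lay on the male side as well: inhbb differed by 3.1 ± 0.35 in gonad and 1.14 ± 0.35 in body, inhbaa by 2.81 ± 0.26 and 0.62 ± 0.26, and fsta, encoding follistatin, by 3.02 ± 0.39 and 1.38 ± 0.39. For fsta the 3 ovaries were under 32, so its gonad difference is a lower bound. The Sertoli genes amh, gsdf and dmrt1 were male-enriched through the testis and did not separate the body arrays: their body differences were 0.11, 0.18 and 0.52 log2 units, beside 6.13, 5.45 and 6.68 in gonad.

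**Figure D4:**
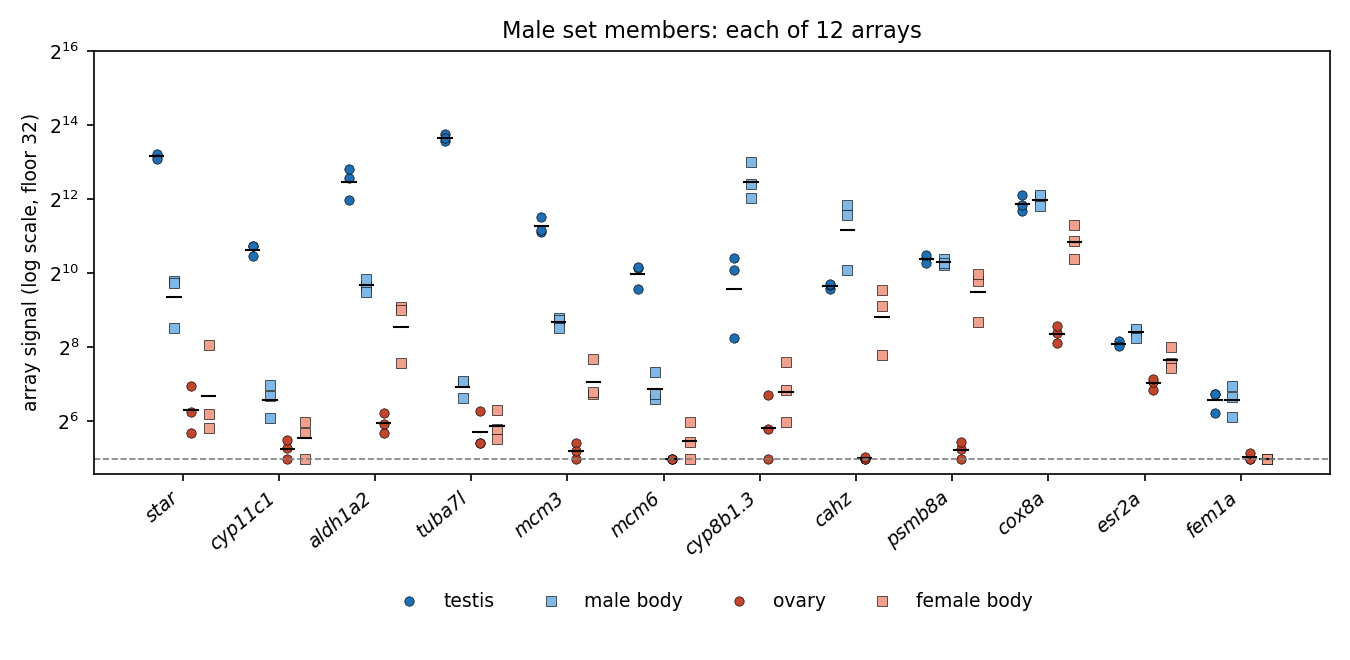
Signal of 12 male set genes on each of the 12 arrays (y axis, logarithmic, values under 32 drawn at 32, dashed line); points are single arrays and black lines are group means on the log scale. Testis (dark blue) and male body (light blue) lie above every female array for each gene, and the distance between male body and female body is small for esr2a and wide for cyp8b1.3.

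The member with the largest body difference in the male set was cyp8b1.3, a cytochrome P450 gene of the sterol 12-alpha-hydroxylase family, which shapes bile acids in the liver. Male body read 4151, 5429 and 8112 and female body 63.4, 115 and 193, a difference of 5.66 ± 0.6 log2 units. In testis the gene read 303, 1094 and 1353, and in ovary 55.4, 18.8 and 104. On the same 3 testis arrays the 4 liver markers summed to 2504, 3756 and 6192, and the part of liver RNA in the testis value was not tested. In the bodies the liver markers were closer together, with sums of 59408 to 77634 in the males and of 45827 to 51775 in the females. The neighbouring family member cyp8b1.1 differed by 3.42 ± 0.39 in body but was not a member, because its testis arrays (140.2, 327 and 463) overlapped female body (421, 357 and 699.5).

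Flagellar genes were mostly male-enriched, through the gonad. Of 52 genes of the axoneme and sperm flagellum, 47 were called higher in males (41.3% of all genes) and 10 were in the set (6.8% of all genes), and the median was 4.94 log2 units in gonad and 0.02 in body. The sperm alpha-tubulin gene tuba7l read 12091, 13690.2 and 12854 in testis. Male body read 135, 137 and 99.3, above 77.7, 43.1 and 43.1 in ovary and 46.1, 55.3 and 78.7 in female body, so that the body difference was 1.06 ± 0.28 and rested on signals near the floor. The radial spoke gene rsph9 had a body difference of 0.48 ± 0.25, spag6, a central pair gene, 0.78 ± 0.29, and dnaaf19, a dynein assembly factor, 0.66 ± 0.25. Their gonad differences were 7.03 ± 0.25, 6.67 ± 0.29 and 6.41 ± 0.25. Male body means were also low, at 65.3 for rsph9, 99.3 for spag6 and 69 for dnaaf19. Male body against female body was not called by limma for rsph9 (adjusted p = 0.14) or dnaaf19 (adjusted p = 0.052).

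Of 26 genes of intraflagellar transport and the basal body, 22 were called higher in males (41.3% of all genes). The 1 member of the male set (6.8% of all genes) was ift46 (5.17 ± 0.19 in gonad, 0.52 ± 0.19 in body). The related gene ift57 missed the set through 1 array: its testis signals were 2553, 2920.3 and 1974, its ovary signals 149, 124 and 131 and its female body signals 149, 73.3 and 76.8, while male body read 7500.5, 6688 and 37.1. In male body 3 the signal was thus below every female array, and in the other two it was above every testis array. The sex contrast of ift57 was 3.95 ± 1.05 log2 units (limma adjusted p = 0.0054). Of 8 genes of meiotic recombination 5 were called higher in males and 1 in females (41.3% and 28.3% of all genes). Their medians were 3.77 in gonad and -0.97 in body. None was in the male or the female set (6.8% and 6.97% of all genes), and 8 genes are too few to read that as a trait of the group.

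Several of the largest male differences lay outside the gonadal lists. The parvalbumin gene pvalb6, a calcium buffer, read 8341, 6712 and 6359 in testis, 309, 388 and 279.5 in male body, 45.1, 44.4 and 43.3 in ovary and 65.5, 143 and 126 in female body. The sodium pump subunit gene atp1a1b read 1830.5, 2206 and 1737, 792, 747 and 985, 29.4, 10.1 and 9.4 and 107, 199 and 342 in the same order of groups. The 6 male arrays of atp1a1b lay at least 1.13 log2 units above the female ones. The pump regulator fxyd3 differed by 6.4 ± 0.45 in gonad and 1.47 ± 0.45 in body, the microtubule regulator stmn1b by 6.85 ± 0.19 and 1.32 ± 0.19, and mlf1 by 6.66 ± 0.42 and 1.85 ± 0.42. For stmn1b 2 of the 3 ovary arrays were under 32.

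A second ranking took the smaller of the 2 tissue differences. There star and cyp8b1.3 came with slc5a12, a sodium-coupled carboxylate transporter (2.43 ± 0.38 in gonad and 2.16 ± 0.38 in body), syt11a, a synaptotagmin (2.45 ± 0.29 and 2.08 ± 0.29), ric3b, an acetylcholine receptor chaperone (4.58 ± 0.4 and 2.04 ± 0.4), the adaptor gene sorbs2b (4.04 ± 0.43 and 1.96 ± 0.43) and the mucin gene muc5.1 (2.95 ± 0.53 and 1.99 ± 0.53). In muc5.1 female body 1 read 6 against 167 and 200.5 on the other female body arrays, and this spread enters the SE of both tissues. The unnamed gene gb:ai877918 had a wide gap, with the male arrays between 221 and 281 and the female arrays between 16.3 and 76.1.

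Genes of the replicative helicase lay on both sides. The subunit gene mcm3 was in the male set with 2938, 2213 and 2289.7 in testis, 446, 431 and 365 in male body, 42.4, 12.6 and 36.8 in ovary and 107, 112 and 204 in female body. Its fellow subunit mcm6 followed, at 1137, 768 and 1154, 161, 96.5 and 107, 9, 9 and 18.6 and 24.8, 43.7 and 62.9. The paralog mcm6l, a maternal form of the subunit, was in the female set: ovary read 3484, 2663 and 3368 and female body 2005, 846 and 742, against 176, 132 and 149 in testis and 18.6, 12.2 and 55.9 in male body. The genes mcm6 and mcm6l therefore had male and female arrays fully apart in opposite directions.

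A like pair occurred among genes of autophagy. The gene map1lc3b, which encodes a protein of the autophagosome membrane, read 1522, 1717 and 1489 in testis and 1780.1, 1836 and 1599.8 in male body against 495, 439.6 and 516 in ovary and 826, 1153 and 1092 in female body. Its relative map1lc3c read 13138, 15119 and 11798 in ovary and 7999.8, 5553 and 3853 in female body against 566, 473 and 588 in testis and 129, 79.9 and 49.7 in male body. These pairs were chosen after their values were seen. Probe sets of paralogs can share sequence, and cross-hybridisation was not tested.

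Genes of energy metabolism were male-enriched by small amounts. Of 90 genes of oxidative phosphorylation, 73 were called higher in males (41.3% of all genes) and 16 were in the male set (6.8% of all genes). The median was 0.73 log2 units, close in gonad (0.64) and body (0.75), but it was -0.08 with the hybridisation control scaling, so that the direction of the group was not settled. The member with the largest difference was cox8a, a subunit of cytochrome c oxidase: testis 3249.9, 3661 and 4383, male body 4225, 3602 and 4378, ovary 275, 333 and 378 and female body 1329, 1859 and 2519. That gene kept its side, and stayed in the set, under all 3 scalings. The complex I genes ndufc2, ndufs7 and ndufa8 differed by 1.03 ± 0.13, 1.02 ± 0.14 and 1.12 ± 0.13, and cox6b2 by 0.92 ± 0.1; all 4 lost their call with the control scaling.

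Of 71 cytosolic ribosomal protein genes 70 were called higher in males (41.3% of all genes), but the arrays overlapped for all except rpl38, the 1 member (1.16 ± 0.11). Their median was 0.72 log2 units and turned to -0.09 with the control scaling. Of 45 proteasome genes 37 were called higher in males and 7 were in the male set (41.3% and 6.8% of all genes), with a median of 0.51 that turned to -0.30. The assembly factor gene pomp differed by 0.86 ± 0.11, and the subunit genes psmb2 and psmc5 by 1.03 ± 0.11 and 1.1 ± 0.12. The immunoproteasome gene psmb8a differed more (2.98 ± 0.2), at 1365, 1229.5 and 1448 in testis, 1342, 1194 and 1236 in male body, 38.2, 43.9 and 24 in ovary and 412, 884 and 1003 in female body.

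Of 55 immune genes 42 were called higher in males, 3 in females (41.3% and 28.3% of all genes), with a median of 1.47 log2 units that stayed above 0 under every scaling. In the male set were 4 of the 55, a share near the 6.8% of all genes: psmb8a, coro1a, an actin regulator of leukocytes (2.18 ± 0.22), irf9, a transcription factor of interferon signalling (2.18 ± 0.21), and tapbp.1, which loads antigen peptides (0.56 ± 0.15, but -0.25 with the control scaling). For irf9 the ovary arrays read 3.1 to 8, below the floor, so the gonad difference is a lower bound. Of 15 blood genes 13 were called higher in males and 3 were in the male set (41.3% and 6.8% of all genes). The carbonic anhydrase gene cahz of red cells read 765, 822 and 836 in testis, 3029, 1093 and 3642 in male body, 11.9, 12.8 and 33 in ovary and 221, 551 and 751 in female body. Blood markers moved in the same way, at 7538 to 10151 in testis and 253 to 387 in ovary, and at 20034 to 37047 in the bodies of males and 9762 to 21685 in those of females; the part of blood content in these differences was not tested.

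Of 40 nuclear receptor and related genes 29 were called higher in males and 4 in females (41.3% and 28.3% of all genes). In the male set were 7 and in the female set 2 (6.8% and 6.97% of all genes). The median of 0.73 turned to -0.02 with the control scaling. The estrogen receptor gene esr2a was a member with a small gap: testis 272, 288 and 263, male body 349.9, 362 and 307, ovary 115, 134 and 143 and female body 190.3, 172 and 258. Its difference of 0.9 ± 0.15 fell to 0.09 and lost its call with the control scaling. The orphan receptor nr1d2b, a repressor of the circadian clock, differed by 4.7 ± 0.23 in gonad and 1.15 ± 0.23 in body, and nr2f2, an orphan receptor of mesenchyme, by 2.58 ± 0.35 and 0.93 ± 0.35. The thyroid hormone receptor gene thrb was also in the male set (0.9 log2 units). On the female side were rarab, a retinoic acid receptor gene (-2.52), and pgrmc2, which encodes a membrane-bound haem protein (-0.89 ± 0.17).

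The remaining lists had few members. Of 71 genes of collagen and extracellular matrix 57 were called higher in males (41.3% of all genes). The male set held 5 of the 71, a share near the 6.8% of all genes, among them the laminin gene lama5 (1.99 ± 0.19) and col18a1a (1.62 ± 0.29). The integrin gene itgb5 was in the female set (-1.67 ± 0.16). Lysosomal genes were in both sets, 5 and 4 of 37 (6.8% and 6.97% of all genes). The cathepsin genes ctsf (3.24 ± 0.18) and ctsk (2.6 ± 0.23) were male-enriched and the cathepsin gene ctss2.1 was female-enriched, at 16854, 19128 and 16018 in ovary, 14527, 12536 and 10196 in female body and 494 to 553 on the 6 male arrays. The membrane protein gene lamp2 was on the same side as ctss2.1 (-2.59 ± 0.11). Of 45 liver genes and 23 pancreas genes, 35 and 19 were called higher in males (41.3% of all genes). None was a member of a set (6.8% and 6.97% of all genes were in the male and female set).

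**Figure D5:**
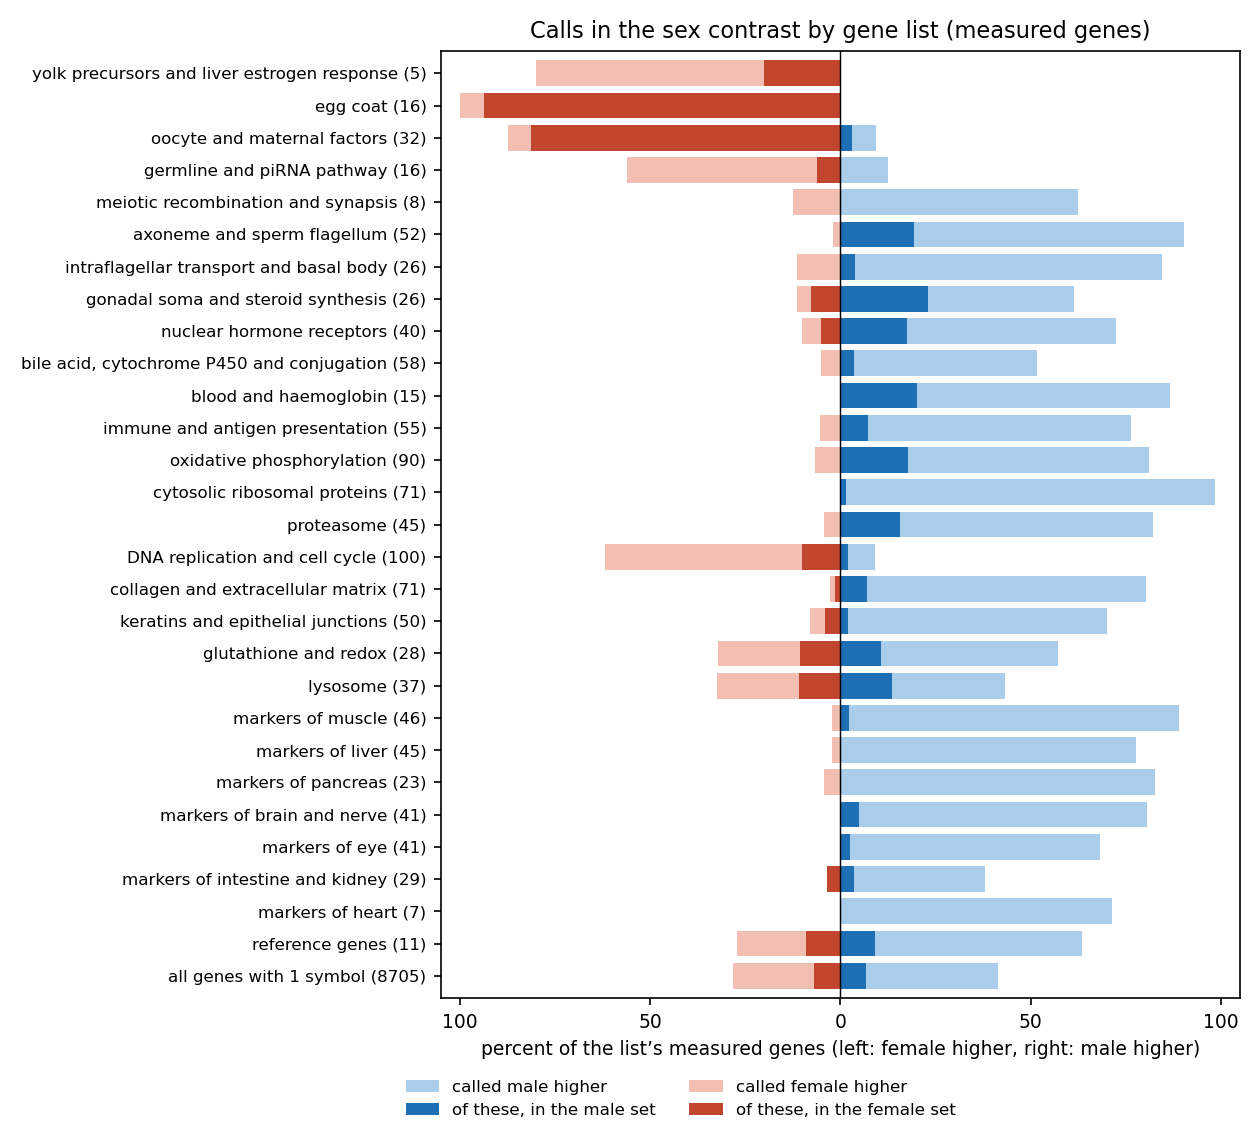
Share of each gene list called in the sex contrast by limma (adjusted p under 0.05), female-enriched to the left and male-enriched to the right, in percent of the measured genes (number in brackets); dark bars are the genes in the both-tissue sets. Egg coat and oocyte genes are dark red almost throughout, while most male-enriched lists are pale, with overlap between the sexes.

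Yolk genes were female-enriched mainly through the body. The vitellogenin gene vtg2 was a member, at 23631, 31932 and 38762 in female body, 57.5, 15.4 and 16.7 in male body, 124, 112 and 198 in ovary and 35.7, 34.1 and 28 in testis. Its body difference was -9.63 ± 0.3 log2 units and its gonad difference -2.05 ± 0.3. The yolk genes vtg3 and vtg4 were called higher in females without being members. The gene vtg4 differed by -9.08 ± 0.38 in body and -0.43 ± 0.38 in gonad, and vtg3 by -7.4 ± 0.56 and 0.04 ± 0.56. The protease gene nots, which is expressed in the liver of laying females, read 1582, 2835 and 10609 in female body and 11.6 to 78.6 elsewhere. Female body 1 was the lowest of its group for vtg2, vtg3, vtg4 and nots.

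The estrogen receptor gene esr1 drives vitellogenin synthesis in the liver. It was higher in female body (109.5, 304 and 538) than in male body (46.8, 78.8 and 72.6), by -2.02 ± 0.46 (limma adjusted p = 0.0049). It was lower in ovary than in testis (1.8 ± 0.46, adjusted p = 0.0045), and the sex contrast was -0.11 ± 0.32 (adjusted p = 0.77). The ovary arrays read 21.2, 12.6 and 19.3, all under 32. The gonad difference of esr1 is therefore a lower bound, and its sex contrast depends on the floor. The receptor gene esr2b differed in the gonads (3.27 ± 0.26, adjusted p = 5.4e-07) and not detectably in the bodies (-0.08 ± 0.26, adjusted p = 0.83). The aquaporin gene aqp12, a water channel of the pancreas in mammals, was likewise split, higher in testis than in ovary (3.32 ± 0.28, adjusted p = 8.3e-07) and lower in male than in female body (-1.72 ± 0.28, adjusted p = 7.2e-04).

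In 14 female members the female body mean exceeded the ovary mean (1.52% of the set; over all probe sets tested, the female body mean was above both the ovary and the male body mean in 4.33%). Those with a single gene name were vtg2, zp3.1, lsm12b, atad3 and mvk. For zp3.1 the margin was narrow, at 18288, 19182 and 20577 in female body against 17071, 17238 and 16172 in ovary. In 88 male members, 74 of them with a single gene name, the female body mean was at or below the ovary mean (7.5% of the set; over all probe sets tested, it was at or below the ovary mean and below the male body mean in 14.7%). Their median body difference was 0.78 log2 units. Male body against female body was called for 76 of the 88, beside 979 of all 1173 male members. Of all probe sets tested, 26.6% were called higher in male body. The choice of members used this contrast, so these calls are no separate support.

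Of these 88 members 4 genes are given here. The gene fem1a, which helps mark proteins for degradation, read 75.3, 108 and 106 in testis and 125, 101 and 69.7 in male body, against 8.2, 6.8 and 35.7 in ovary and 21, 8.7 and 16.1 in female body. The haem synthesis gene urod read 205, 261 and 193 in testis, 664, 267 and 412 in male body, 162, 155 and 170.5 in ovary and 138, 126 and 169 in female body, with differences of 1.55 ± 0.3 in body and 0.42 ± 0.3 in gonad (difference between tissues adjusted p = 0.06). The forkhead gene foxp2 differed by 1.16 ± 0.31 and 1.55 ± 0.31. The calcium pump gene atp2b4 had its widest separation on another probe set than the one counted here, with 498, 493 and 652 in testis, 645, 657 and 526 in male body, 144, 188 and 167 in ovary and 143, 149 and 210 in female body, a gap of 1.23 log2 units and nearly equal differences in gonad (1.72 ± 0.22) and body (1.88 ± 0.22).

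For 3 male members the test of the difference between tissues gave a larger value in body. They were arhgap33, a regulator of small GTPases (gonad 0.45 ± 0.19, body 1.95 ± 0.19, difference of the 2 adjusted p = 0.0012), irx4a, a homeobox gene (gonad 0.21 ± 0.15, body 0.88 ± 0.15, adjusted p = 0.033), and 1 probe set without a gene name. The female arrays of arhgap33 and irx4a were all under 32, so both tissue differences are lower bounds, the test compared testis with male body alone, and in which tissue the sexes differed more cannot be told. The keratin gene krt95 had a wide body difference without being a member, at 713, 766 and 799.5 in male body and 55.9, 23.1 and 22 in female body, because its testis arrays (35.2, 59.6 and 11.6) overlapped those of the female body.

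Over all probe sets the gonad and body differences correlated (Pearson r = 0.66), but for part of them the 2 tissues disagreed in size or direction. The test of the difference between tissues called 3476 probe sets with a more male-biased gonad (23.1%) and 1902 with a more male-biased body (12.6%); after quantile normalisation the second count was 3347. With each tissue called by itself, 2500 probe sets were higher in males in both (16.6%) and 1731 higher in females in both (11.5%). Male in gonad and female in body, each called by itself, were 204 probe sets (1.35%), and the reverse were 98 (0.65%). The named genes with the largest such difference of the first kind were cfap90, ddx4, ela2, enkur and foxm1. For ddx4, the vasa RNA helicase of germ cells, testis read 6990.4, 5647 and 5517 and ovary 1099, 603 and 967 while male body read 41.8, 16 and 5.4 and female body 691, 201 and 273. For ela2, a pancreatic protease, the differences were 4.75 ± 0.36 in gonad and -1.04 ± 0.36 in body, beside pancreas markers of 3756 to 10979 in testis and at most 384 in ovary.

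Of the second kind they were abcb5, pfkma, gna11b, slc13a2 and nptna. The transporter gene abcb5 read 462, 514 and 1036 in male body and 172, 145 and 166 in female body, but 68, 74.4 and 84.4 in testis and 374, 308 and 328 in ovary (difference between tissues -4.12 ± 0.41, adjusted p = 1.6e-05). The phosphofructokinase gene pfkma of muscle glycolysis differed by -2.78 ± 0.27 in gonad and 1.06 ± 0.27 in body. Such genes cannot be members, and for abcb5, gna11b, slc13a2, foxm1 and ddx4 the sex contrast was not called.

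Some genes were read by several probe sets. The 641 named genes of the male set had 700 probe sets in it, with 2 or more for 53 of the genes. Outside the set these genes had 162 further probe sets. Of those, 107 were called in the same direction, 14 in the opposite one and 41 not at all. The 649 named genes of the female set had 737 probe sets in it, with 2 or more for 69 of the genes. Outside that set they had 142 further probe sets, with 72 called in the same direction, 29 in the opposite one and 41 not called. Of all probe sets tested, 44.4% were called higher in males and 23.2% higher in females. A total of 3 genes had a member in each set: eif1axb, khdrbs1a and mpv17. For mpv17, a gene of the inner mitochondrial membrane, 3 probe sets were female-enriched by -8.03 ± 0.19, -7.64 ± 0.25 and -7.93 ± 0.2 and a further one was male-enriched by 0.97 ± 0.14, with male arrays of 55.4 to 94.4 against 2.6 to 47.2 on female arrays. For the RNA-binding protein gene khdrbs1a one probe set read 9794, 11318 and 8699.6 in ovary against 3756, 3078 and 3737 in testis, and another read 1538, 1489.6 and 2098 against 5400.5, 5932 and 6096. Several of these probe sets carry the manufacturer's suffix for shared sequence (a_at or x_at), and which transcript each one read was not tested.

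At the edge of the sets the separation was a matter of single arrays. The 3 male members with the smallest gaps were 1 unnamed probe set at 0.00037 log2 units, a second at 0.0014 and zftraf1 at 0.0016, and the nearest outside were sgsh at -0.00079, trappc2 at -0.0011 and dub at -0.0013. In the female set timm8b, fbxo43 and ggps1 had gaps of 0.0021, 0.0022 and 0.0034, and ankha at -0.0015, an unnamed probe set at -0.0021 and lsg1 at -0.0024 lay just outside. The lowest male array of zftraf1 read 92.5 and its highest female array 92.4.

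Membership under other scalings differed sharply between the sets. Under quantile normalisation, median centring and the control scaling alike, 734 female members (79.4%) stayed in their set, but 282 male members (24%) did so. The median difference was 2.29 log2 units in those 282 and -2.78 in those 734. Among the male genes described above, mcm3, mcm6, cyp8b1.3, pvalb6, atp1a1b, stmn1b, slc5a12, syt11a, sorbs2b, ric3b, gb:ai877918, inhbb, nr1d2b, atp2b4, irf9, coro1a, ctsk, lama5 and cox8a stayed in the set under all 3, whereas star, mlf1, fxyd3, cyp11c1, muc5.1, ndufc2, ndufa8, inhbaa, fsta, cox6b2, map1lc3b, rpl38, col18a1a, nr2f2, cahz, aldh1a2, fem1a, psmb2, pomp, psmc5, ndufs7, psmb8a and ctsf left it under 1 or 2 of them and esr2a, rsph9, foxp2, dnaaf19, ift46, arhgap33, spag6, urod, tuba7l, irx4a, zftraf1 and tapbp.1 under all 3.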

How the data were processed

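Each of the 12 samples was hybridised to 1 Affymetrix zebrafish array. The deposited intensity values are linear signals that the authors obtained with GCOS 1.2 (MAS5), scaling each array to a common trimmed mean, so that changes in the total RNA of a tissue are not kept. The 115 control rows were left out, signals below 32 were set to 32 and log2 values were taken. Of 15502 probe sets 431 were at 32 on all 12 arrays, and 15071 were fitted. The share of probe sets at or under the floor was highest in ovary; the number of arrays limits the precision.

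A linear model with 4 group means and moderated variances that follow the intensity (limma 3.58.1 in R 4.3.3) was fitted to all 12 arrays, and p-values were adjusted over 15071 probe sets by Benjamini-Hochberg, with a threshold of 0.05. Contrasts were testis minus ovary, male body minus female body, their mean and their difference. The model estimates 1 residual spread per probe set over all 4 groups. The SE of the gonad and the body difference of a gene are therefore equal and do not measure the spread within either tissue. A difference against a group whose arrays are all at the floor is a lower bound. On simulated data 72 of 100 probe sets changed by 1 log2 unit and 98 of 100 changed by 2 were called in the sex contrast. Those probe sets lay well above the floor and changed equally in both tissues. Recovery near the floor, with unequal differences or for membership of a set was not simulated. Figures were drawn in Python 3.11.15 with matplotlib 3.10.9.

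Exactly 1 gene symbol was given for 10795 probe sets, several for 135 and none for 4572; 10711 were matched to RefSeq by gene identifier. For counts over genes the probe set with the highest mean signal stood for each gene. The members and gene lists were chosen with earlier results of these data known. Named genes were the 10 members per set with the largest difference, the 10 with the largest smaller tissue difference, up to 4 per list with the highest mean signal, the 5 largest differences between tissues in each direction and the 3 on each side of the set's edge; further genes were named after their values were seen.

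Gonad and body were taken from each fish, and samples with the same number were taken to be from the same fish, which the labels do not state for each number. Deviations from the group means correlated at 0.24 to 0.31 in these 6 pairs and at -0.20 to -0.04 between different fish of a sex. Alternatives were other floors, filters, scalings, variance models, a replicate block, the methods' t-test and leaving out each array. Scaling to the hybridisation controls and keeping female body 3 alone were chosen after seeing the data.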

Additional observations from a re-analysis of the deposited data

Results flagged for a closer look

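The sex difference was not the same in gonad and body for many probe sets: limma called 3476 with a more male-biased gonad and 1902 with a more male-biased body. The values that follow are the gonad difference minus the body difference in log2 units for genes named above, each called at an adjusted p under 0.05.

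Among male members the gonad difference was larger by 4.19 for star, 4.34 for cyp11c1, 4.81 for mlf1, 4.93 for fxyd3, 5.71 for pvalb6, 5.53 for stmn1b, 3.79 for atp1a1b, 6.3 for cfap144 and 6.87 for tuba7l. It was larger by 4.45 for mcm3, 3.56 for mcm6, 2.54 for ric3b, 2.08 for sorbs2b, 2.29 for cahz and 0.93 for map1lc3b. In the activin group the values were 2.19 for inhbaa, 1.97 for inhbb and 1.63 for fsta. For arhgap33 (-1.5) and irx4a (-0.67) every female array was under 32, so these values compare testis with male body only.

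Among female members the value was 7.58 for vtg2 and 1.5 for map1lc3c, whose female excess was larger in the body, and -2.03 for hsd3b2, whose excess was larger in the gonad. Genes outside the sets gave 8.64 for vtg4, 7.44 for vtg3, 7.0 for nots, 3.82 for esr1, 3.35 for esr2b, 5.05 for aqp12 and -3.95 for krt95. Genes with opposite directions in the tissues gave 6.43 for cfap90, 6.07 for ddx4, 5.79 for ela2, 5.18 for enkur and 5.13 for foxm1, and -4.12 for abcb5, -3.84 for pfkma, -3.42 for gna11b, -3.11 for slc13a2 and -2.88 for nptna.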

How the results depend on the processing

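Median centring gave 4268 male-enriched and 5497 female-enriched probe sets and a male set of 730; scaling to the hybridisation controls gave 3458, 6045 and a male set of 436. Leaving out female body 3 raised the male set to 1903. Arrays that lie apart stay apart when any is left out, so this removes a member only if it loses its call. Each tissue was also fitted and called on its own 6 arrays, without the rule that the arrays of the sexes must not overlap. Called in both tissues in the same direction were then 1811 male-enriched and 1462 female-enriched probe sets. In the 12-array fit 2500 and 1731 were so called. Requiring a gap of at least 1 log2 unit left 35 male and 340 female members. Probe sets with a more male-biased body numbered 3347 after quantile normalisation. Leaving out each array in turn gave 6309 to 6849 male-enriched and 3332 to 3595 female-enriched probe sets, male sets of 1191 to 1903, female sets of 924 to 1254, and 2994 to 3864 and 1484 to 2129 probe sets with a more male-biased gonad and body. With the replicate block the counts were 6772 and 3569 (number fixed) or 6486 and 3416 (fish random). No call of a named gene changed. The sets kept all 1173 and 924 probe sets, but a block leaves the gaps between arrays as they are. Only a lost call could have removed a member.

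Directions turned in few named genes. With the hybridisation control scaling these were txna (-0.12), trappc2 (-0.12), lamc1 (-0.11), aqp12 (-0.01), an unnamed probe set (-0.09), atp6v1g1 (-0.02), nr2f6a (-0.08), prdx2 (-0.39), psmd13 (-0.05), tapbp.1 (-0.25) and prdx3 (-0.06). With a floor of 100 these were foxm1 (0.33), abcb5 (0.11), gna11b (0.12), slc13a2 (0.42) and ddx4 (0.53), and with a floor of 8 esr1 (0.33). The gene ddx4 was at 0.02 after quantile normalisation. Leaving out each array in turn, esr1 ranged from -0.43 to 0.15 (above 0 without female body 3, and at 0.0 without male body 1), foxm1 from -0.26 to 0.01 and abcb5 from -0.28 to 0.01 (both above 0 without male body 1), and ddx4 from -0.42 to 0.03 (above 0 without female body 1). The causes were not tested.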
